A study of Mus musculus with 4 samples.

Results

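Collagens and matrix genes of the tissue around the crypt were followed in laser-captured Paneth cells, which sit at the crypt bottom in the small intestine and secrete antimicrobial granules. The members were all genes whose platform symbol begins with Col, a number, a and a number, together with Sparc, Fn1, Lum, Dcn, Bgn, Vim, Pdgfra, Fbln1 and Postn. This gave 51 of the 18193 genes named on the array, 42 collagen genes and the 9 others, measured by 103 of 45101 probe sets. Values of a gene are those of the probe set that was brightest on average over the 4 arrays, unless another is named. Of the 51 members, 36 had a mean signal above that of the median probe set (113.9) and were tested, and 15 lay below it.

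The mice were male NMRI mice of 8 weeks. The conventionalized pool came from 3 mice first kept germ-free and then conventionalized for 10 days with the gut flora of a normally raised mouse, and the germ-free pool from 3 mice kept germ-free throughout. Both pools were Paneth cells cut from frozen small intestine, and 2 aliquots of 10 ng RNA from each pool were amplified and put on 1 Affymetrix Mouse430_2 array each. The 2 arrays of a group are thus repeat amplifications of 1 pool, so every standard error and p-value below covers amplification and array error and not the spread between mice. Array medians were 102.4 and 135.9 in the conventionalized and 132.8 and 86.5 in the germ-free group, while each array's mean signal was 250 once the top and bottom 2% of values were removed. Fluidics station 2 washed both conventionalized arrays and station 1 both germ-free arrays, so the station's share in any difference cannot be told apart from the group's. Conventionalized replicate 2 stood apart, with correlations over all probe sets tested of 0.754 to 0.779 with the other arrays, which correlated at 0.855 to 0.890 among themselves.

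Collagens are proteins of 3 chains wound into a helix. Fibrillar collagens make up the fibres of the connective tissue under the epithelium, collagen IV forms the mesh of the basement membrane on which crypt cells rest, and collagen VI makes fine beaded filaments around and between the fibres. In the gut many of these genes are known chiefly as products of fibroblasts and myofibroblasts, which wrap the crypt, and of vessel walls. In a capture of epithelial cells the members' signal was therefore read as a gauge of RNA from that tissue. The gauge is rough: the set also holds genes known from other cells, such as Col17a1, Col25a1 and Col2a1, and leukocytes also make Vim. In bulk RNA, fewer cells of a type and less RNA per cell cannot be told apart.

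The promoters of 4 members are shown. Col4a1 and Col4a2 lie head to head on opposite strands with annotated starts 21 bases apart. Col1a2 and Col3a1 are bright fibrillar chains whose groups did not overlap. RefSeq (GRCm38.p6) held windows from 250 bases before to 50 after the start for 39 of the 51 members. The windows of Col4a1 (chr8:11312777-11313076, minus strand) and Col4a2 (chr8:11312555-11312854, plus strand) share 78 bases, in capitals, read on opposite strands.
Col4a1: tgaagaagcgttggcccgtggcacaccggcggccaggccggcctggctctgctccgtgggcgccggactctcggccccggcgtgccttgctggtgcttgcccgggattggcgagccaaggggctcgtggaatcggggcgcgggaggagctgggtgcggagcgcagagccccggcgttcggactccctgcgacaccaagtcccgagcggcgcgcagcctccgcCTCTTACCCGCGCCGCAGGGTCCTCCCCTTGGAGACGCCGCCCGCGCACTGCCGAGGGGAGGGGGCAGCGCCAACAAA
Col4a2: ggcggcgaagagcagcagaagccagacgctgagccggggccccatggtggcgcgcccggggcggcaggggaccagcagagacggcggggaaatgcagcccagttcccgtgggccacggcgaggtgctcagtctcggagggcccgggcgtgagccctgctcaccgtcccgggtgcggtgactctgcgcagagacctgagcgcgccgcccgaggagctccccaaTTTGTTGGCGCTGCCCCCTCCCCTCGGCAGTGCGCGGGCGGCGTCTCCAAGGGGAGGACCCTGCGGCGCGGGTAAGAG
In the windows of Col1a2 (chr6:4505368-4505667, plus strand) and Col3a1 (chr1:45311288-45311587, plus strand), capitals mark matches, on either strand, to CCAAT (the CCAAT box), to TATAAA (the TATA box) or to GGGCGG (the GC box).
Col1a2: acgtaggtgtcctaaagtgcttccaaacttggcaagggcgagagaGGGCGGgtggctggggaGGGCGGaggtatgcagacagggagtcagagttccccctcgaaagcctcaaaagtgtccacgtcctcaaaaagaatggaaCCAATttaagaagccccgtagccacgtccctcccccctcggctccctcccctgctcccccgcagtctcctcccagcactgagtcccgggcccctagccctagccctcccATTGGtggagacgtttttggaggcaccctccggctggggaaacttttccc
Col3a1: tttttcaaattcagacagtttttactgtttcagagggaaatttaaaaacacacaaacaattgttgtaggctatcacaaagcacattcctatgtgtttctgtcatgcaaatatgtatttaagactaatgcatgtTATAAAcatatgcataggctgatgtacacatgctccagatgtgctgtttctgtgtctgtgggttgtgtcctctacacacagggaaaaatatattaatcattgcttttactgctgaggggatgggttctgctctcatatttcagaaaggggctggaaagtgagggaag
The window of Col1a2 held 2 CCAAT and 2 GGGCGG matches and no TATAAA, and that of Col3a1 held 1 TATAAA match and neither of the others. Counted from the annotated start, the Col1a2 matches lay at -205 and -188 (GGGCGG) and at -109 and 0 (CCAAT). The Col3a1 match lay at -117. Whether any match works as a promoter element was not tested. No match overlapped another in these windows. The motifs occurred in 37.4% (CCAAT), 13.6% (TATAAA) and 35.7% (GGGCGG) of all 32851 windows of the same length, and in 15, 7 and 24 of the 44 windows of members.

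The comparison of the conventionalized with the germ-free pool asked how colonization altered the RNA of the captured cells. For the members it compared a signal read as a gauge of stromal RNA, and which cells gave that signal was not tested. The summed signal of the 51 members was 15054 and 16947 on the conventionalized arrays, against 17492 and 14679 on the germ-free arrays. These sums overlap between the groups. As a share of all signal on the array, the members held 0.0621% and 0.0655% in the conventionalized pool, against 0.0993% and 0.0655% in the germ-free pool. The shares of conventionalized replicate 2 and germ-free replicate 2 were nearly equal, and germ-free replicate 1 was the highest. A share also depends on the total signal of its array. In summed signal, germ-free replicate 1 (17492) lay much nearer to conventionalized replicate 2 (16947) than in share. Of the 51 members, 35 and 35 lay above the array's median signal on the conventionalized arrays, and 33 and 32 on the germ-free arrays. On all 4 arrays 25 members (49.0%) did so, Vim, Col3a1, Col6a1, Col6a2 and Col1a2 among them, as did 46.0% of all 18193 genes read by their brightest probe set.

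Limma called 0 of the 36 tested members at an adjusted p under 0.05, where it called 0.333% of all 22491 probe sets tested (0.12% higher and 0.213% lower). Only Fbln1, which was lower, had an unadjusted p under 0.05, where 5.13% of all probe sets did (1.78% higher and 3.35% lower). The median log2 difference, conventionalized minus germ-free on log2(signal + 32), was 0.18 over the 36 members and 0.0033 over all probe sets tested. It was above 0 in 23 members and below in 13, and above 0 in 50.2% of all probe sets. Leaving out conventionalized replicate 1 or 2 gave a member median of 0.40 or -0.00090, and leaving out germ-free replicate 1 or 2 gave 0.25 or -0.023, so its sign rests on single arrays. In 8 members the groups did not overlap, 2 higher and 6 lower, and among all probe sets 31.1% did not overlap (15.8% higher and 15.3% lower). No member differed by 2-fold or more in all 4 pairs of arrays, as 2.63% of all probe sets did. For 29 of the 36 members the difference was smaller than its standard error, which limma took from probe sets of like signal. A p that misses the threshold does not show that the pools were alike.

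**Figure D1:**
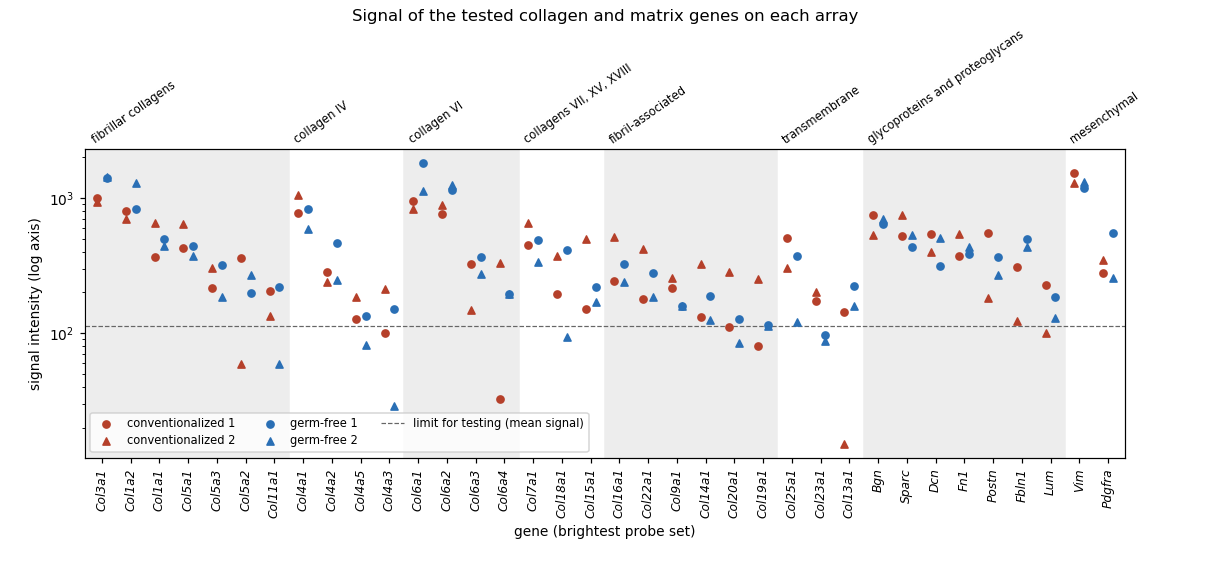
Signal intensity (log axis) of the 36 tested members on the conventionalized (red, left of each gene) and germ-free (blue, right) arrays, circles for replicate 1 and triangles for replicate 2, grouped by class. Vim keeps between 1191 and 1524 on the 4 arrays, whereas Col13a1 runs from 15.3 to 222.

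Of 11 fibrillar collagens 7 were tested. Col3a1, the main chain of type III collagen in soft connective tissue, read 993 and 933 in the conventionalized pool, against 1401 and 1437 in the germ-free pool. Its log2 difference was -0.55 ± 0.42 (limma SE, 2 arrays a group), and its limma adjusted p was 0.999. The groups were apart and the duplicates close, with a ratio of 1.06 between conventionalized and 1.03 between germ-free duplicates. A second probe set of Col3a1 ran the other way, with 200 and 231 in conventionalized against 161 and 50.7 in germ-free samples.

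Type I collagen, the commonest fibre collagen, has chains from Col1a1 and Col1a2. Col1a2 read 793 and 695 in the conventionalized pool, against 827 and 1282 in the germ-free pool, a log2 difference of -0.46 ± 0.42. Its groups did not overlap, yet the germ-free duplicates lay further apart than the groups' nearest arrays. Col1a1 read 365 and 647 in conventionalized samples, against 499 and 438 in germ-free samples, a difference of 0.056 ± 0.47 with overlapping groups. The signs of the partner chains were opposite, but the Col1a1 difference was small beside its standard error and changed sign in 3 of 14 alternatives. Neither chain was called.

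Type V collagen sits in the core of type I fibres and sets their width. Col5a1 read 424 and 640 (conventionalized) against 441 and 373 (germ-free), and Col5a2 read 361 and 59.7 (conventionalized) against 199 and 268 (germ-free). Their log2 differences were 0.34 ± 0.47 and -0.47 ± 0.65, and in Col5a2 the conventionalized duplicates alone were 6.05-fold apart. Col5a3 and Col11a1, minor fibrillar chains, differed by 0.064 ± 0.57 and 0.39 ± 0.81. Col2a1, the cartilage collagen, and Col11a2, Col24a1 and Col27a1 lay under the signal limit.

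Collagen VI gave the only class in which every tested chain was below 0. Col6a1 read 949 and 831 in the conventionalized pool, against 1815 and 1123 in the germ-free pool, a log2 difference of -0.67 ± 0.42. Col6a2 read 754 and 882 in the conventionalized pool, against 1134 and 1235 in the germ-free pool, a difference of -0.52 ± 0.42. In both genes the groups did not overlap.

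Col6a3, the longest of the 3 main chains of the same filament, read 327 and 147 in the conventionalized pool, against 364 and 273 in the germ-free pool, a difference of -0.46 ± 0.55 with overlap. Col6a4 had 32.9 and 331 against 194 and 195 in the same order, a difference of -0.56 ± 0.76 that turns on which conventionalized array is read. The median over the 4 tested chains was -0.54, none was called, and Col6a5 was under the limit. A second probe set of Col6a2 differed by 0.21 ± 0.44, so the probe sets of this gene differ in sign.

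Smooth muscle markers were set beside these collagens. Of 13 smooth muscle and myofibroblast markers, 8 were tested, 3 were above 0 and 5 below, the median was -0.23, and none was called. Their summed signal was 4549 and 7758 in the conventionalized pool, against 9380 and 9009 in the germ-free pool, without overlap. Acta2, the actin of myofibroblasts and smooth muscle, read 1024 and 1775 in the conventionalized pool, against 2938 and 2240 in the germ-free pool, a difference of -0.91 ± 0.42 (limma adjusted p = 0.859). Tpm2, a muscle tropomyosin, read 880 and 2702 in the conventionalized pool, against 2991 and 3893 in the germ-free pool, a difference of -1.13 ± 0.43 (limma adjusted p = 0.515). Neither gene overlapped between groups. Without Acta2 and Tpm2 the sums were 2645 and 3281 in the conventionalized pool, against 3451 and 2876 in the germ-free pool, which overlap. Actg2, also of this list, read 79.9 and 189 in the conventionalized pool, against 420 and 302 in the germ-free pool. Its difference was -1.31 ± 0.61 without overlap (limma adjusted p = 0.871). Of the 8 tested, 3 had a limma unadjusted p under 0.05 (Acta2, Tpm2 and Actg2), where 5.13% of all probe sets tested did. The 3 above 0, Cald1, Tpm1 and Tagln, differed by 0.27, 0.16 and 0.11, with no overlap for Cald1. The part of muscle RNA in the collagen values was not tested.

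**Figure D2:**
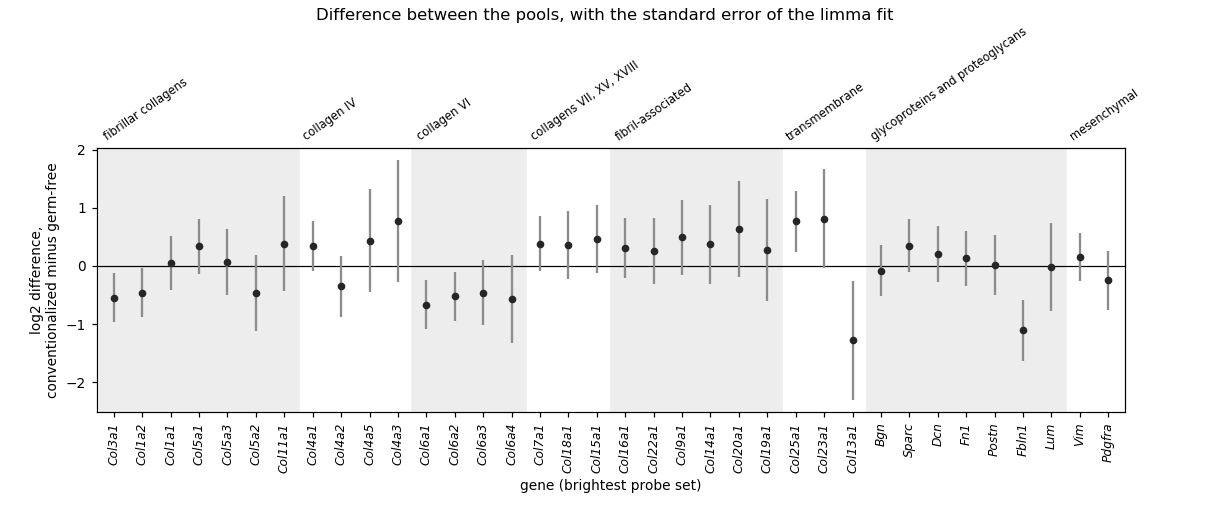
Log2 difference, conventionalized minus germ-free, of the 36 tested members in the same order of classes, with the standard error of the limma fit as bars. Collagen VI chains lie between -0.67 and -0.46, and the bars of 29 members reach 0.

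Collagen IV heterotrimers of the general basement membrane combine chains of Col4a1 and Col4a2, the head-to-head pair printed above. Col4a1 read 779 and 1043 in the conventionalized pool, against 827 and 592 in the germ-free pool, a log2 difference of 0.35 ± 0.43. Its second probe set, at 152 and 458 against 216 and 164 in the same order, gave 0.44 ± 0.59. Col4a2 read 283 and 240 in the conventionalized pool, against 467 and 247 in the germ-free pool, a difference of -0.35 ± 0.53. For both genes the groups overlapped, and each difference was smaller than its standard error.

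The remaining collagen IV chains occur in the basement membranes of particular tissues, those of Col4a5 and Col4a6 also around smooth muscle. Col4a3 read 101 and 213 in the conventionalized pool, against 151 and 28.9 in the germ-free pool, a difference of 0.77 ± 1.05. Col4a5 differed by 0.43 ± 0.89, while Col4a4 and Col4a6 were under the limit. Col4a3 had the lowest mean of any tested member, 123, and Col4a6 the highest of any untested one, 109.

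Collagens VII, XV and XVIII lie in or beside the basement membrane, VII as anchoring fibrils and XV and XVIII as carriers of sugar chains. Col7a1 read 449 and 649 in the conventionalized pool, against 487 and 338 in the germ-free pool, a difference of 0.39 ± 0.47. Col15a1 read 152 and 495 in the conventionalized pool, against 220 and 169 in the germ-free pool, a difference of 0.46 ± 0.58, or -0.30 without conventionalized replicate 2. Col18a1, the source of the fragment endostatin, read 196 and 369 in the conventionalized pool, against 409 and 93.3 in the germ-free pool, a difference of 0.36 ± 0.58. The second probe set of Col18a1 had 120 and 35 against 358 and 229 in the same order, a difference of -1.66 ± 0.78 (limma adjusted p = 0.890). The sign for this gene thus depends on the probe set read.

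Fibril-associated collagens coat the fibres. All 6 tested (of 9) were above 0, with a median of 0.34, and none was called. Col9a1 read 218 and 257 in the conventionalized pool, against 159 and 160 in the germ-free pool, a difference of 0.49 ± 0.64 without overlap. Col20a1 read 111 and 282 in the conventionalized pool, against 127.7 and 85.1 in the germ-free pool, a difference of 0.63 ± 0.83. For each of these 6 genes the highest array was conventionalized replicate 2.

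Transmembrane collagens held both ends of the range. Col23a1 read 173 and 202 in the conventionalized pool, against 97.7 and 87.0 in the germ-free pool, a difference of 0.82 ± 0.86 without overlap. Col25a1, known from neurons, read 506 and 301 in the conventionalized pool, against 374 and 121 in the germ-free pool, a difference of 0.77 ± 0.53. Without germ-free replicate 2 the Col25a1 difference was 0.061, and without germ-free replicate 1 it was 1.47. Col13a1 read 143 and 15.3 in the conventionalized pool, against 222 and 159 in the germ-free pool, a difference of -1.28 ± 1.02. The conventionalized duplicates of Col13a1 were 9.31-fold apart, and the difference is -0.34 without conventionalized replicate 2. Col17a1, the hemidesmosome collagen of stratified epithelium, had signals of 11.6 and 7.0 against 5.0 and 4.1 in the same order and was not tested.

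Among the glycoproteins and proteoglycans, Fbln1, which encodes fibulin-1 of elastic fibres and basement membranes, stood lowest. It read 310 and 123 in the conventionalized pool, against 493 and 432 in the germ-free pool, a log2 difference of -1.10 ± 0.53 with an unadjusted p of 0.0356 and a limma adjusted p of 0.908. Its groups did not overlap. The conventionalized duplicates were 2.53-fold apart, and the difference was -0.53 without conventionalized replicate 2, -1.68 without conventionalized replicate 1 and -0.39 over the mean of all its probe sets. Of its other probe sets, one differed by 0.32 ± 0.53 and the other by -0.39 ± 0.74.

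Sparc, a collagen-binding protein of remodelling tissue, read 519 and 744 in the conventionalized pool, against 434 and 533 in the germ-free pool, a difference of 0.35 ± 0.45. Fn1, the cell-binding glycoprotein fibronectin, read 373 and 539 in the conventionalized pool, against 384 and 432 in the germ-free pool, a difference of 0.13 ± 0.48. Postn, the fibroblast protein periostin, read 546 and 182 in the conventionalized pool, against 366 and 269 in the germ-free pool, a difference of 0.022 ± 0.52. In all 3 the groups overlapped.

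Decorin, biglycan and lumican are small leucine-rich proteoglycans that bind collagen fibres. Dcn read 542 and 399 in the conventionalized pool, against 315 and 506 in the germ-free pool, a difference of 0.20 ± 0.48. Bgn read 741 and 533 in the conventionalized pool, against 639 and 697 in the germ-free pool, a difference of -0.082 ± 0.44. Lum read 228 and 101 in the conventionalized pool, against 186 and 130 in the germ-free pool, a difference of -0.018 ± 0.75. For each of them the conventionalized duplicates spanned both germ-free values or overlapped them. Another probe set of Bgn read 250 and 239 in the conventionalized pool, against 34.2 and 127 in the germ-free pool. It differed by 1.43 ± 0.84 without overlap (limma adjusted p = 0.999), and the remaining probe set of Bgn by -0.039 ± 0.48.

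Vim, the intermediate filament of mesenchymal cells, read 1524 and 1285 in the conventionalized pool, against 1191 and 1312 in the germ-free pool. The difference was 0.16 ± 0.42. Pdgfra, the growth factor receptor that marks subepithelial fibroblasts and telocytes, read 281 and 350 in the conventionalized pool, against 552 and 255 in the germ-free pool, a difference of -0.24 ± 0.51. Both genes overlapped between groups.

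The 15 untested members had mean signals from 6.93 to 109, and none lay above the array median on all 4 arrays. They include both chains of collagen VIII and the cartilage genes Col2a1, Col9a2, Col9a3 and Col10a1. Col8a1, a chain of vessel and corneal matrix, spread widely, with 14.9 and 242 in the conventionalized pool against 26.6 and 1.9 in the germ-free pool.

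The spread between duplicates was smallest among the brightest tested members. Among the 12 brightest tested members, with means from 440 to 1328, 0 had conventionalized duplicates more than 2-fold apart and 0 had germ-free duplicates so far apart. In the middle 12 it was 6 and 3, and in the dimmest 12 it was 8 and 2, in the same order of groups. Over all 36, 14 (38.9%) were more than 2-fold apart in the conventionalized and 5 (13.9%) in the germ-free pool, against 35.5% and 27.6% of all probe sets tested.

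**Figure D3:**
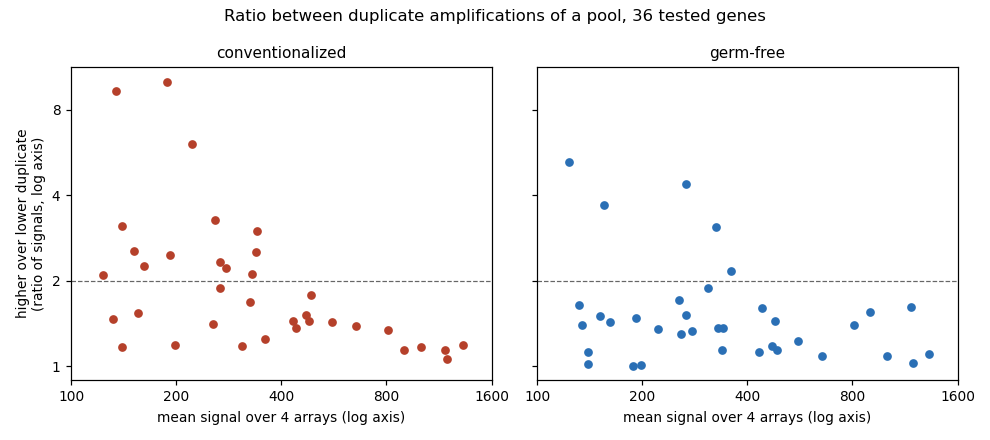
Ratio of the higher to the lower duplicate of a pool against mean signal (log axes) for the 36 tested members, conventionalized at left and germ-free at right, with a dashed line at 2-fold. Above a mean signal of 440 every point lies under the line, and the conventionalized panel has 14 points above it against 5 in the germ-free panel.

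The same array differed most for the members. Across the 36 members, which are not independent replicates and share the arrays' scaling, the log2 values of conventionalized replicate 2 correlated at 0.562 with those of its duplicate and at 0.660 and 0.640 with germ-free replicates 1 and 2. The other 3 pairs of arrays correlated at 0.842 to 0.878. It was the highest array for 17 of the 36 members (47.2%), against 32.9% of all probe sets tested, and the lowest for 11. Without it, 18 members lay above 0 and 18 below.

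Probe sets of the same gene often disagreed. Of 13 members with more than 1 tested probe set, 10 had differences of both signs, namely Bgn, Col18a1, Col20a1, Col3a1, Col5a1, Col5a2, Col6a2, Fbln1, Sparc and Vim. Col1a2, Col4a1 and Pdgfra had 1 sign throughout. Over all 53 tested probe sets of members, 29 were above 0 and 24 below, the median was 0.064, and 0 were called by limma, with 2 at an unadjusted p under 0.05.

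Genes that build and process collagen were measured beside the members, and 0 of 14 tested were called (9 above 0, 5 below, median 0.27). Ppib, a proline isomerase that helps collagen fold, read 19263 and 18609 in the conventionalized pool, against 8278 and 14444 in the germ-free pool, a difference of 0.79 ± 0.64 without overlap. P4hb, a subunit of prolyl hydroxylase and a general disulfide isomerase of secretory cells, read 9719 and 10596 in the conventionalized pool, against 6915 and 11884 in the germ-free pool, a difference of 0.16 ± 0.57. Both are used by all secretory cells and do not mark stroma, and the groups overlapped for P4hb. Serpinh1, the collagen chaperone of the endoplasmic reticulum, read 274 and 46.2 in the conventionalized pool, against 523 and 344 in the germ-free pool, a difference of -1.56 ± 0.58 (limma adjusted p = 0.483). Its groups did not overlap, and its conventionalized duplicates were 5.92-fold apart. The other 4 genes below 0 were Plod2 (-1.33), Bmp1 (-1.32), Plod3 (-0.86) and Pcolce (-0.67), and those above 0 reached 1.55 (Crtap). Crtap read 173 and 198 in the conventionalized pool, against 15.5 and 84.4 in the germ-free pool, a difference of 1.55 ± 1.17. It alone of the 14 differed by 2-fold in all 4 pairs of arrays, as 2.63% of all probe sets did. Of the 14, 3 were higher and 3 lower without overlap, where 31.1% of all probe sets tested did not overlap. Lox, the enzyme that crosslinks collagen, was under the limit.

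Of the matrix proteases and their inhibitors 8 were tested, 5 above 0 and 3 below, with a median of 0.24 and 0 called. Mmp2, a gelatinase of fibroblasts, read 256 and 418 in the conventionalized pool, against 533 and 371 in the germ-free pool, a difference of -0.41 ± 0.49. Timp3, a protease inhibitor bound to matrix, read 261 and 582 in the conventionalized pool, against 416 and 168 in the germ-free pool, a difference of 0.50 ± 0.52. Neither gene's groups were apart.

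The other basement membrane genes gave 4 above 0 and 6 below among 10 tested, with a median of -0.28 and 0 called. Dag1, the laminin receptor dystroglycan, read 2325 and 2572 in the conventionalized pool, against 1750 and 2670 in the germ-free pool, a difference of 0.18 ± 0.43. Agrn, the proteoglycan agrin, read 831 and 331 in the conventionalized pool, against 608 and 720 in the germ-free pool, a difference of -0.31 ± 0.45. The laminin chains tested ran from -1.19 (Lama5) to 0.58 (Lama2).

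Other interstitial matrix genes split 7 above 0 and 8 below among 15 tested, with a median of -0.0056 and 0 called. Tgfbi, a collagen-binding protein induced by TGF-beta, read 4612 and 4043 in the conventionalized pool, against 5504 and 9084 in the germ-free pool, a difference of -0.71 ± 0.49. Its groups did not overlap, and all 4 of its probe sets were below 0. Matn2, a matrilin of filament networks, read 454 and 164 in the conventionalized pool, against 631 and 508 in the germ-free pool, a difference of -0.96 ± 0.49 (limma adjusted p = 0.970).

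Among 6 tested collagen receptors 0 were called, with 2 above 0, 4 below and a median of -0.30. Ddr1, a receptor tyrosine kinase of epithelial cells that collagen activates, read 675 and 279 in the conventionalized pool, against 1288 and 1494 in the germ-free pool. Its log2 difference was -1.60 ± 0.43, with a limma adjusted p of 0.0552. The groups did not overlap, but the conventionalized duplicates were 2.42-fold apart, and not every pair of arrays differed by 2-fold. The 13 alternatives gave adjusted p-values from 0.00197 to 1.00, under the threshold in 4 of them. Of its 7 tested probe sets 5 were below 0 and 2 above, from -1.60 to 0.42. Cd44, a receptor for hyaluronan that also binds collagen, differed by -0.028 ± 0.52.

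Marker lists set these values beside the other cells of a capture. The 18 fibroblast and telocyte markers, Pdgfra among them, summed to 6331 and 5718 in the conventionalized pool, against 6636 and 6531 in the germ-free pool, with 0 of 12 tested called and a median of -0.13. These sums did not overlap, and without Adamdec1, a protease that gave 2612 to 3825 of them, they were 2550 and 3040 in the conventionalized pool, against 4023 and 2705 in the germ-free pool, with overlap. Of the 12 tested, 5 were above 0 and 7 below. The lowest was Dpt, the matrix protein dermatopontin, which read 366 and 242 in the conventionalized pool, against 582 and 892 in the germ-free pool. Its difference was -1.19 ± 0.47 without overlap (limma adjusted p = 0.592). The highest were Foxf2 (0.79 ± 0.88, without overlap), Grem1 (0.78 ± 0.59, with overlap) and Foxf1 (0.74 ± 0.51, with overlap). Foxl1, which marks telocytes, was near the bottom of the scale, with 8.7 and 29.7 against 17.3 and 6.5 in the same order. Endothelial markers summed to 1571 and 2401 in the conventionalized pool, against 2239 and 1717 in the germ-free pool, with 0 of 9 tested called (4 above 0, 5 below). Pecam1 read 15.4 to 17.5 on the 4 arrays, whereas Plvap (294 to 512), Eng (254 to 592), Cldn5 (168 to 242) and Esam (110 to 276) lay above the array median on each. Kdr, a VEGF receptor, read 30.8 and 38.9 in the conventionalized pool, against 207 and 197 in the germ-free pool. Its difference was -1.81 ± 1.20 without overlap (limma adjusted p = 0.999). Flt1 ran the other way, with 196 and 292 in the conventionalized pool, against 94.2 and 99.5 in the germ-free pool. The Flt1 difference was 1.08 ± 0.75 without overlap, and that of Cldn5 was 0.42 ± 0.62, also without overlap.

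Leukocyte markers, which include cells that make Vim, summed to 23758 and 19390 in the conventionalized pool, against 10646 and 10299 in the germ-free pool, with 0 of 8 tested called (6 above 0, 2 below). Much of that sum was Lyz2, at 15930 and 14914 against 5627 and 6963 in the same order, a near copy of the Paneth lysozyme gene Lyz1, from which its signal may not be separate. Without Lyz2 the sums were 7828 and 4476 in the conventionalized pool, against 5019 and 3336 in the germ-free pool, which overlap. Whether they overlap depends also on Laptm5, which read 3043 and 324 in the conventionalized pool, against 1337 and 170 in the germ-free pool. Its difference was 0.99 ± 0.43 (limma adjusted p = 0.801), with duplicates 9.39-fold (conventionalized) and 7.87-fold (germ-free) apart. Of the 8 tested, 2 had a limma unadjusted p under 0.05 (Lyz2 and Laptm5), where 5.13% of all probe sets tested did. The T cell gene Cd8a read 309 and 536 in the conventionalized pool, against 289 and 117 in the germ-free pool. Its difference was 1.01 ± 0.54 without overlap (limma adjusted p = 0.999). The 2 below 0 were the B cell gene Ms4a1 and Ptprc, the common leukocyte antigen, both without overlap. Ms4a1 read 154 and 9.2 in the conventionalized pool, against 300 and 175 in the germ-free pool, a difference of -1.58 ± 0.94. Its conventionalized duplicates were 16.8-fold apart. The other B cell genes measured, Cd79a and Cd79b, were under the signal limit and ran the other way. Cd79b read 134 and 228 in the conventionalized pool, against 10.3 and 82.5 in the germ-free pool, an untested difference of 1.58 without overlap. The untested difference of Cd79a was 0.78, with overlap. Ptprc read 262 and 216 against 327 and 283 in the same order, a difference of -0.32 ± 0.55. Cd3e read 11.4 to 42.1 on the 4 arrays. The 14 epithelial markers summed to 80780 and 110760 in the conventionalized pool, against 73276 and 121085 in the germ-free pool, with overlap. Paneth granule genes summed to 351581 and 882323 in the conventionalized pool, against 76151 and 163192 in the germ-free pool, and 1 of their 10 tested genes, Reg3g, was called. The part of any of these cell types in the collagen values was not tested.

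**Figure D4:**
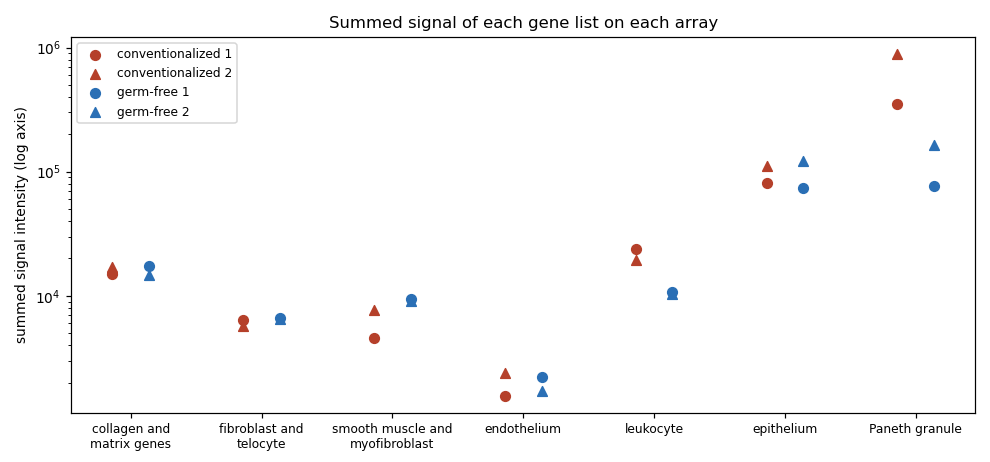
Summed signal (log axis) of the 51 members and of 6 marker lists on the conventionalized (red, left) and germ-free (blue, right) arrays. The members' sums, 14679 to 17492, overlap between the groups, whereas the smooth muscle and fibroblast sums lie lower and the leukocyte and Paneth granule sums higher in the conventionalized pool. The smooth muscle, fibroblast and leukocyte sums overlap once Acta2 and Tpm2, Adamdec1 and Lyz2 are left out, and sums of different lists rest on different probes and are not comparable in height. For leukocytes that overlap depends also on Laptm5, whose duplicates were 9.39-fold (conventionalized) and 7.87-fold (germ-free) apart.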

How the data were processed

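Affymetrix Mouse430_2 arrays (array type per the file headers) measured 2 conventionalized and 2 germ-free RNA aliquots. The deposited values are 1 linear signal intensity per probe set, with an equal trimmed mean on each array when computed here. The software behind them is not given in the sources used here. No depth exists for arrays; their number limits the precision. Symbols came from the platform annotation of 2016, and all 51 members matched a gene identifier of the RefSeq table (GRCm38.p6). Of 45101 probe sets, 34958 named 1 gene, 932 several and 9211 none.

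Intensities became log2(intensity + 32), which understates changes of dim probe sets. Control probe sets (64) and those with a mean up to 113.9 were left out. Limma 3.58.1 (R 4.3.3; lmFit, eBayes with a variance trend) fitted the 22491 others with Benjamini-Hochberg adjustment over all of them, calls being at an adjusted p under 0.05. Prior degrees of freedom were infinite beside 2 residual ones, so standard errors are those of probe sets of like signal. The smallest p a permutation of 2 against 2 allows is 0.333. Members and lists were chosen with earlier results of these data known. Genes named were 21 fixed members, the 6 largest tested differences each way, and the 2 brightest tested and any called gene of each related list. The other genes named with values (Acta2, Tpm2, Actg2, Cald1, Tpm1, Tagln, Serpinh1, Plod2, Plod3, Bmp1, Pcolce, Crtap, Lox, Adamdec1, Dpt, Foxf1, Foxf2, Grem1, Foxl1, Pecam1, Plvap, Eng, Cldn5, Esam, Kdr, Flt1, Cd8a, Ms4a1, Cd79a, Cd79b, Ptprc, Cd3e, Lyz2, Laptm5, Reg3g, Lama5, Lama2, Col17a1, Col8a1, Col7a1, Col4a5, Col5a3, Col11a1), and the sums without single genes, were chosen after their values were seen.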

Additional observations from a re-analysis of the deposited data

How the results depend on the processing

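The count of members called was 0 under all 14 alternatives (a pseudocount of 8 or one 4 times the main value, no filter, only the top 25% of probe sets by signal, median centring, quantile normalization, both replicate blocks, no variance trend, the mean of all probe sets of a gene and each array left out). Limma's count over all probe sets, 75 here, was 33 with quantile normalization, 21 with median centring (3 higher and 18 lower, against 27 and 48), 0 without the variance trend (975 at an unadjusted p under 0.05, 0 of them members), and 41 to 213 with 1 array left out. Median centring took the median of all probe sets to -0.10. Deviations of same-numbered arrays from their group means correlated weakly (r = -0.13 over probe sets), and the numbers were not taken to pair the samples; a replicate block gave 30 calls and a crossed replicate block, added after seeing the data, 228, neither with a member among them. The mean of all probe sets of a gene changed the sign for Bgn (0.44), Col18a1 (-0.65), Col20a1 (-0.024), Col25a1 (-0.0018), Col3a1 (0.21), Col5a2 (0.027), Dcn (-0.36), Fn1 (-0.023), Sparc (-0.058) and Vim (-0.13). Median centring did so for Col1a1 (-0.049) and Postn (-0.082), quantile normalization for Postn (-0.12) and P4hb (-0.0040), and the higher pseudocount for Lum (0.0027). With 1 array left out the sign changed within these ranges: Bgn -0.31 to 0.14, Col15a1 -0.30 to 1.23, Col18a1 -0.55 to 1.27, Col1a1 -0.33 to 0.44, Col4a2 -0.77 to 0.070, Col4a3 -0.024 to 1.57, Col5a2 -1.52 to 0.58, Col6a3 -0.96 to 0.045, Col6a4 -1.80 to 0.68, Dcn -0.11 to 0.52, Fn1 -0.12 to 0.38, Lum -0.50 to 0.46, Pdgfra -0.76 to 0.27, Postn -0.70 to 0.74, Agrn -0.93 to 0.32, Cd44 -0.23 to 0.18, Dag1 -0.13 to 0.48, P4hb -0.23 to 0.55 and Timp3 -0.081 to 1.09. The cause was not tested. Of 39 genes followed through the alternatives (the named ones and Acta2), 15 kept 1 sign under every alternative that gave a value, among them Col1a2, Col6a1, Col6a2, Fbln1, Col4a1 and Ddr1. Ddr1 was called in the top 25% of probe sets, with a pseudocount of 8, with the crossed block and without conventionalized replicate 1. Among the 12 dimmest tested members, duplicates were over 2-fold apart in 8 (conventionalized) and 2 (germ-free), against 6 and 3 in the middle 12. Among the 12 brightest it was 0 and 0. The part of background signal in this was not tested.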
